A study of Mus musculus with 12 samples.

Results

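The genes described here encode the secreted WNT ligands, their Frizzled receptors and LRP co-receptors, the secreted inhibitors that bind either of them, and a small set of intracellular regulators and targets of the same pathway. They were taken by name: every listed gene whose symbol begins with Wnt, Fzd, Sfrp or Dkk followed by a digit, and Axin1, Axin2, Lef1, Tcf7, Lrp5, Lrp6, Wif1, Nkd1, Notum, Rnf43 and Znrf3. That gave 48 of the 18876 genes listed in any library: 19 ligands, 10 Frizzled receptors, 2 co-receptors, 10 secreted inhibitors, 1 destruction complex scaffold, 4 feedback inhibitors and 2 TCF/LEF transcription factors. RNA was sequenced from primary oligodendrocyte progenitor cells of wild-type mice, labelled as brain, after 12 h of treatment. In the stattic group cells received 50 µM hemin, 10 ng/mL interleukin-10 (IL-10) and 2.5 µM stattic; in the IL-10 group 50 µM hemin and 10 ng/mL IL-10; in the hemin group 50 µM hemin; and in the vehicle group DMSO. Hemin is heme with its iron oxidised. The cytokine IL-10 acts largely by activating STAT3, and stattic blocks STAT3. There were 3 libraries in each of the 4 groups, and no group received IL-10 or stattic without hemin. Whether the replicates are separate cultures or animals is not given in the labels, so the p-values describe how these libraries vary, which may be technical variation only.

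A WNT ligand is lipid-modified, leaves the cell with the carrier Wls and binds a Frizzled receptor. With the co-receptor Lrp5 or Lrp6 this stops the destruction complex, in which Axin1 is a scaffold, from marking β-catenin for degradation, and β-catenin then acts with the DNA-binding factors Lef1, Tcf7, Tcf7l1 and Tcf7l2. Some ligands and Frizzled receptors also act without β-catenin, in planar cell polarity. Sfrp and Wif1 proteins bind the ligand, Dkk1 blocks the co-receptor, Notum strips the lipid, Znrf3 and Rnf43 remove Frizzled receptors from the surface, and Axin2 and Nkd1 are induced by the pathway and restrain it. In the oligodendrocyte lineage strong β-catenin signalling is known for holding progenitors back from maturing, and the progenitors themselves are known sources of Wnt7a and Wnt7b, which act on brain endothelium.

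Expected counts, the estimated reads per gene that the deposited files give, summed to between 9404448 and 10266653 per library. They were rounded and scaled with trimmed-mean (TMM) library sizes to CPM (counts scaled to a common library size). The summed level of 7 progenitor markers was 714 to 1804 CPM in stattic libraries, 1368 to 2274 CPM in IL-10 libraries, 1741 to 2514 CPM in hemin libraries and 4615 to 6500 CPM in vehicle libraries, and none of the 7 was at 0 in all libraries of a group. In bulk samples, fewer cells of a type and less RNA per cell cannot be told apart, and this holds for each gene below. Markers of 5 other cell types were present as well; summed over 7 neuronal markers they ranged from 67.3 to 203 CPM over the 12 libraries, and over 6 oligodendrocyte markers from 304 to 10710 CPM. In stattic replicate 3 and hemin replicate 1 short transcripts ran high and long ones low against the vehicle mean: the median log2 difference over the shortest 20% of genes was 1.13 for stattic replicate 3 and 0.47 for hemin replicate 1, and over the longest 20% it was -0.86 and -0.46. The other libraries with hemin tilted the same way by less, at 0.04 to 0.29 for the shortest and -0.21 to -0.09 for the longest. Vehicle libraries were at -0.05 to 0.06 and -0.01 to 0.01. Calls that were lost or gained without both stattic replicate 3 and hemin replicate 1 are given beside their genes.

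Against vehicle, 8 of 30 tested WNT genes were called in at least 1 group (31.8% of all tested genes), and the same 5 were called in each group (14.0%). A gene was called at a Benjamini-Hochberg adjusted p under 0.05 in edgeR's quasi-likelihood test over the 13967 genes that passed a filter on low counts. Stattic, IL-10 and hemin libraries all had higher Wnt11, Lef1, Tcf7 and Sfrp4 than vehicle and lower Wnt7a. Fzd3 fell in stattic and in hemin libraries, and Fzd1 and Fzd9 fell in stattic libraries. The 3 comparisons share the vehicle libraries, so their overlap is no independent repeat.

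In stattic libraries 8 of 30 tested WNT genes were called, 4 higher and 4 lower, against 24.9% of all tested genes. In IL-10 libraries 5 were called, 4 higher and 1 lower, against 21.0%. In hemin libraries 6 were called, 4 higher and 2 lower, against 20.9%. These shares lie near the background and are no result about WNT genes as a set. The median log2 fold change over the 30 was -0.27, -0.11 and 0.19 for stattic, IL-10 and hemin, and over all tested genes 0.10, 0.00 and 0.03. Of the 30, 6 (Fzd10, Lef1, Rnf43, Sfrp4, Wnt11 and Wnt9a) fell short of 10 counts in at least 1 vehicle library, and 3 of the called genes are among them. Those 3 are Lef1, Sfrp4 and Wnt11, with 9, 11 and 1 counts over the whole vehicle group. They passed the filter only through libraries with hemin, where they were higher, so they could only be called higher. The stattic count dropped to 3 without vehicle replicate 1, 2 or 3. The IL-10 count was 2 without IL-10 replicate 2 or any 1 vehicle library, 3 without IL-10 replicate 3 and 9 without stattic replicate 3, and the hemin count was 3 without vehicle replicate 2.

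**Figure D1:**
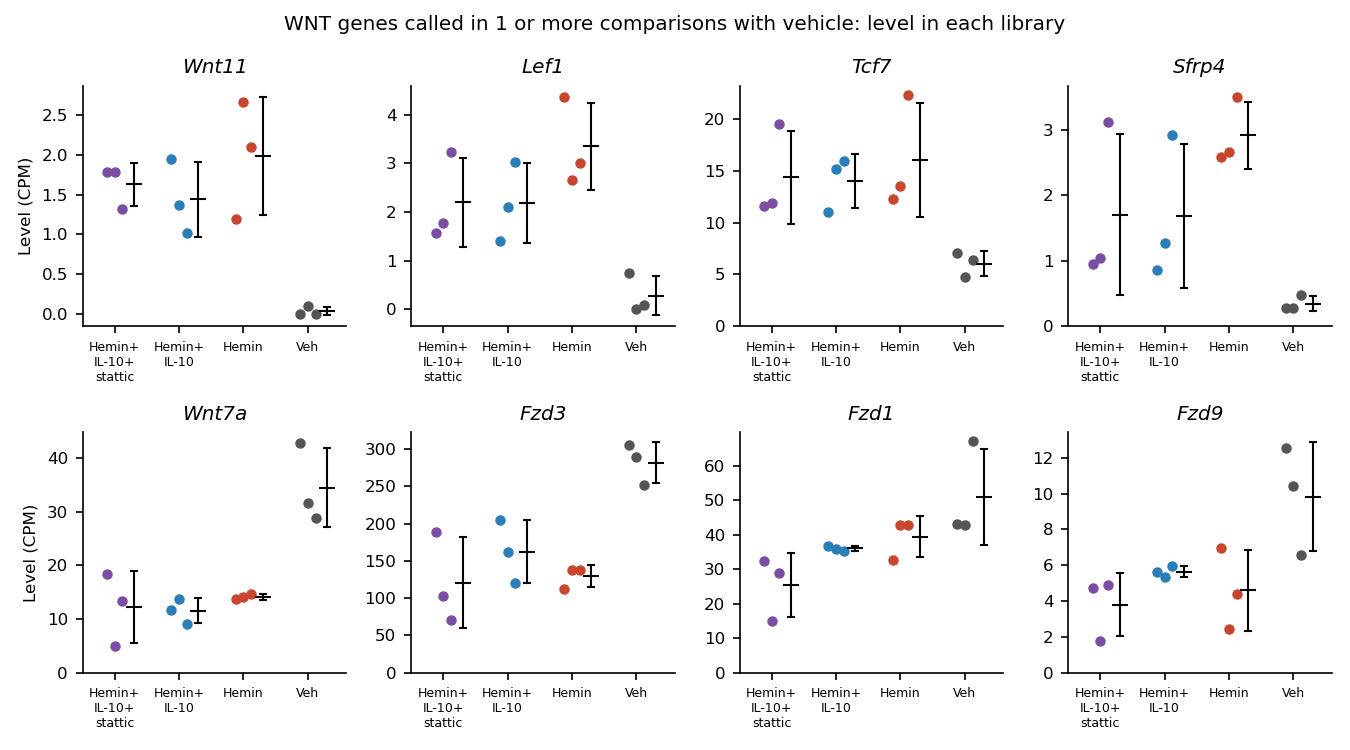
Level of the 8 called WNT genes in each library, in CPM on linear axes; points are the 3 libraries of a group and the bar to their right is the mean ± SD (n = 3). Wnt11, Lef1, Tcf7 and Sfrp4 lay above all 3 vehicle libraries in all 9 libraries that received hemin, and Wnt7a and Fzd3 lay below them.

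Across the 9 libraries with hemin, 9 of the 30 tested WNT genes did not overlap the vehicle libraries, against 28.8% of all tested genes. Axin1, Lef1, Sfrp4, Tcf7, Wnt11 and Wnt9a were higher in every library and Fzd3, Wnt2b and Wnt7a lower in every library. Of these, Axin1, Wnt9a and Wnt2b were called in no comparison. Lef1, Sfrp4, Wnt11 and Wnt9a needed libraries with hemin, where they were higher, to pass the filter on low counts. Group by group, 12 of the 30 did not overlap vehicle in stattic libraries, 15 in IL-10 libraries and 11 in hemin libraries, against 41.1%, 49.2% and 50.1% of all tested genes.

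Wnt11, a ligand best known for acting without β-catenin in cell movement and polarity, was close to absent in vehicle and present in every library with hemin. Its level was 1.78, 1.78 and 1.32 CPM in stattic libraries, 1.94, 1.37 and 1.01 CPM in IL-10 libraries and 1.19, 2.67 and 2.10 CPM in hemin libraries, against 0, 0.0914 and 0 CPM in vehicle libraries. Those CPM values rest on 45 counts in the stattic group, 41 in the IL-10 group, 59 in the hemin group and 1 in the vehicle group. From these counts the ratio to vehicle was 52.9 for stattic (exact 95% interval 9.02 to 2135), 46.1 for IL-10 (7.82 to 1864) and 63.8 for hemin (11.0 to 2560); the intervals cover counting error only. The adjusted p was 0.00175, 0.00217 and 0.00126 in edgeR's quasi-likelihood test for stattic, IL-10 and hemin, and Wnt11 stayed called without any 1 of the 12 libraries. It was a minor ligand throughout, at no more than 1.41 FPKM (fragments scaled to transcript length and library depth, the deposited unit in which levels of different genes can be set side by side).

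Promoter windows from RefSeq (GRCm38.p6, from 250 bases before to 50 after an annotated start) were matched by symbol for 31 of the 48 genes, with 39 windows in all. They were searched on both strands for CTTTGA, the core letters bound by TCF/LEF factors. The 250 bases before the start are printed for Wnt11 and Lef1, which rose, and for Wnt7a, which fell. For Wnt11 and Lef1 the start shown is the one whose window holds a match. Capitals mark a match, which reads TCAAAG where it lies on the opposite strand.
Wnt11, start 1 (chr7:98834862-98835111, plus strand): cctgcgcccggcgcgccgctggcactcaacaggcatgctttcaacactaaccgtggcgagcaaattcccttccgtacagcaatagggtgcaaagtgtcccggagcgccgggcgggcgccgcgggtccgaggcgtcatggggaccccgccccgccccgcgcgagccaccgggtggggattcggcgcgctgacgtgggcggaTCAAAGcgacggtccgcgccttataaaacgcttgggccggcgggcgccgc
Lef1, start 4 (chr3:131156044-131156293, plus strand): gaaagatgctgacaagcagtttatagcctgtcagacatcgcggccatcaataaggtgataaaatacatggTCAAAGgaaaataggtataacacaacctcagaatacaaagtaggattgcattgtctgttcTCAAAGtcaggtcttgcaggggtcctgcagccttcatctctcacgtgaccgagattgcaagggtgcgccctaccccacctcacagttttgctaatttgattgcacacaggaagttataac
Wnt7a (chr6:91411354-91411603, minus strand): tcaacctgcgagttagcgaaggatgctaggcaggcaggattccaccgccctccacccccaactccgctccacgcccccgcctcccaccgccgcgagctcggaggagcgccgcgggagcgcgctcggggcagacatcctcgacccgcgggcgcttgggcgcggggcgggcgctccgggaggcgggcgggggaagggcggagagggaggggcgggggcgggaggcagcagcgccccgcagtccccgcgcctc

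The Wnt11 window shown holds 1 match, 50 to 45 bases before the start, and with its next base it reads CTTTGAT, while the window of the second Wnt11 start holds none. The Lef1 window shown holds 2 matches, and the windows of the other 3 Lef1 starts hold none. The Wnt7a window holds none, which says only that these letters are not in it. Among called genes not printed, the windows of Tcf7, which rose, and Fzd9, which fell, hold none, while that of Fzd1, which fell, holds 1. Of all 32851 windows in RefSeq's set 13.8% held CTTTGA and 3.21% held the longer CTTTGAT, which contains it. Among the 39 WNT windows 5 held the shorter form, at Dkk1, Fzd1, Lef1, Wnt11 and Wnt5b, and 2 the longer, at Wnt11 and Wnt5b. The other motifs searched in the same way were these: TGANTCA (AP-1) was found in 6.75% of all windows and 1 WNT window, TGACNNNGC (antioxidant response element core) in 10.2% and 5, GAANNTTC (paired heat shock element) in 6.69% and 2, and TTCNNNGAA (STAT) in 7.02% and 1. A match is a description of the letters and was not tested as a binding site.

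Wnt7b and Wnt7a made up most of the ligand message in every library, and the share they held was lower in all 9 libraries with hemin. Together they accounted for 51.4% to 77.4% of the summed ligand FPKM in stattic libraries, 55.3% to 73.4% in IL-10 libraries and 64.3% to 79.7% in hemin libraries, against 84.8% to 87.7% in vehicle libraries. The summed ligand level itself was 10.6 to 34.3 FPKM in stattic libraries, 11.8 to 26.9 FPKM in IL-10 libraries and 20.1 to 40.5 FPKM in hemin libraries, against 29.4 to 52.7 FPKM in vehicle libraries, so it overlapped between groups while the share did not. The sums and shares were not tested.

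Wnt7a fell in all 3 comparisons. It stood at 18.3, 4.92 and 13.4 CPM in stattic libraries, 11.8, 13.8 and 9.09 CPM in IL-10 libraries and 13.7, 14.0 and 14.7 CPM in hemin libraries, against 42.9, 31.7 and 28.9 CPM in vehicle libraries. No library with hemin reached the lowest vehicle library, and the 3 hemin libraries lay close together. Relative to vehicle the log2 fold change was -1.49 ± 0.39 for stattic (SE; adjusted p = 0.0173), -1.58 ± 0.39 for IL-10 (adjusted p = 0.0156) and -1.28 ± 0.38 for hemin (adjusted p = 0.0338). The stattic and IL-10 calls were lost without vehicle replicate 1 (adjusted p = 0.0710 and 0.0696). The hemin call was lost without any 1 of the 3 hemin or 3 vehicle libraries (adjusted p 0.0599 to 0.121) and without both hemin replicate 1 and stattic replicate 3 (0.0714).

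Wnt7b, the most abundant ligand in each of the 12 libraries, spread too widely to be called. Its level was 72.6, 12.9 and 49.3 CPM in stattic libraries, 45.4, 50.8 and 11.5 CPM in IL-10 libraries and 95.7, 28.5 and 27.9 CPM in hemin libraries, against 88.9, 108 and 45.8 CPM in vehicle libraries. The groups overlapped, and the log2 fold change of -0.85 for stattic had a 95% confidence interval (CI) of -2.34 to 0.64, that of -1.17 for IL-10 one of -2.67 to 0.32, and that of -0.68 for hemin one of -2.16 to 0.81. Within the vehicle group the library lowest in Wnt7b was replicate 3, in which Gfap, an astrocyte marker, was at 36.4 CPM against 2556 and 2150 CPM in replicates 1 and 2. The other astrocyte markers were lower there too but by less, down to Slc1a3 at 1678 CPM against 1960 and 1804 CPM. With hemin 1 of these markers, Gja1, ran higher in most libraries, at 43.8 to 446.5 CPM against 36.9 to 104 CPM in vehicle. The summed level of 7 astrocyte markers was 1025 to 3877 CPM in stattic libraries, 843 to 2400 CPM in IL-10 libraries and 1910 to 2883 CPM in hemin libraries, against 2184 to 6225 CPM in vehicle libraries, with none of the 7 at 0 in all libraries of a group and 1 of 7 called lower in each comparison with vehicle. Their part in the Wnt7a and Wnt7b levels was not tested.

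Wnt5a, a ligand best known for signalling without β-catenin, was the next by mean FPKM. It stood at 8.07, 5.13 and 5.28 CPM in stattic libraries, 8.63, 11.3 and 8.99 CPM in IL-10 libraries and 11.5, 8.81 and 7.41 CPM in hemin libraries, against 8.63, 9.87 and 7.33 CPM in vehicle libraries. Hemin and vehicle overlapped throughout, with a log2 fold change of 0.10 (95% CI -0.54 to 0.75). Wnt5b, Wnt9a and Wnt2b were tested as well and not called. Wnt5b, a close relative of Wnt5a, stood at 3.88, 1.05 and 3.84 CPM in stattic libraries, 1.73, 1.37 and 1.72 CPM in IL-10 libraries and 4.56, 2.36 and 1.70 CPM in hemin libraries, against 7.42, 4.75 and 3.05 CPM in vehicle libraries. All 3 IL-10 libraries lay below all 3 vehicle libraries, and the log2 fold change for IL-10, -1.65 ± 0.56 (SE), just missed the threshold in edgeR's quasi-likelihood test (adjusted p = 0.0541). It was called without both hemin replicate 1 and stattic replicate 3 (0.0372), without either of them or stattic replicate 2 alone, and with DESeq2, library totals, a correction for transcript length, those 2 groups alone or the replicate number as a block (0.0226 to 0.0465). Wnt9a was at 1.31 to 6.92 CPM across the 9 libraries with hemin, against 0.381 to 1.30 CPM in vehicle, with adjusted p-values of 0.0564 for stattic, 0.0995 for IL-10 and 0.0603 for hemin in edgeR's quasi-likelihood test. DESeq2 and the fit with the replicate block called it in all 3 (0.0135 to 0.0496). Its counts in vehicle libraries were 14, 13 and 4. Wnt9a therefore needed libraries with hemin, where it was higher, to pass the filter on low counts. Wnt2b was at 0.0992 to 1.36 CPM with hemin and 1.67 to 2.56 CPM in vehicle, and its smallest adjusted p was 0.0851, for hemin, where limma on log2(FPKM + 0.1) and on log2(FPKM + 1) called it lower (0.0477 and 0.0230).

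The other 12 ligands had too few counts for the main edgeR test. Wnt2 had 31 counts over the 3 stattic libraries, 24 in the IL-10 group and 24 in the hemin group, against 2 in the vehicle group. Its ratio to vehicle was 18.2 for stattic (exact 95% interval 4.64 to 157), 13.5 for IL-10 (3.35 to 118) and 13.0 for hemin (3.22 to 113). Wnt6 had 14, 12 and 14 counts in the stattic, IL-10 and hemin groups and 1 in vehicle. Without the filter on low counts Wnt2 was called in all 3 comparisons with vehicle and Wnt6 in the stattic comparison. Limma called Wnt2 higher in all 3 on log2(FPKM + 0.1) and on log2(FPKM + 1) (adjusted p 0.00256 to 0.0160). On log2(FPKM + 0.1) it also called Wnt6 higher for stattic and hemin (0.0483 and 0.0493). Wnt1, Wnt3a, Wnt8a, Wnt10a and Wnt10b had 0 counts in vehicle and at most 8 in any other group, and Wnt3, Wnt4, Wnt8b, Wnt9b and Wnt16 had at most 27 counts in any group.

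**Figure D2:**
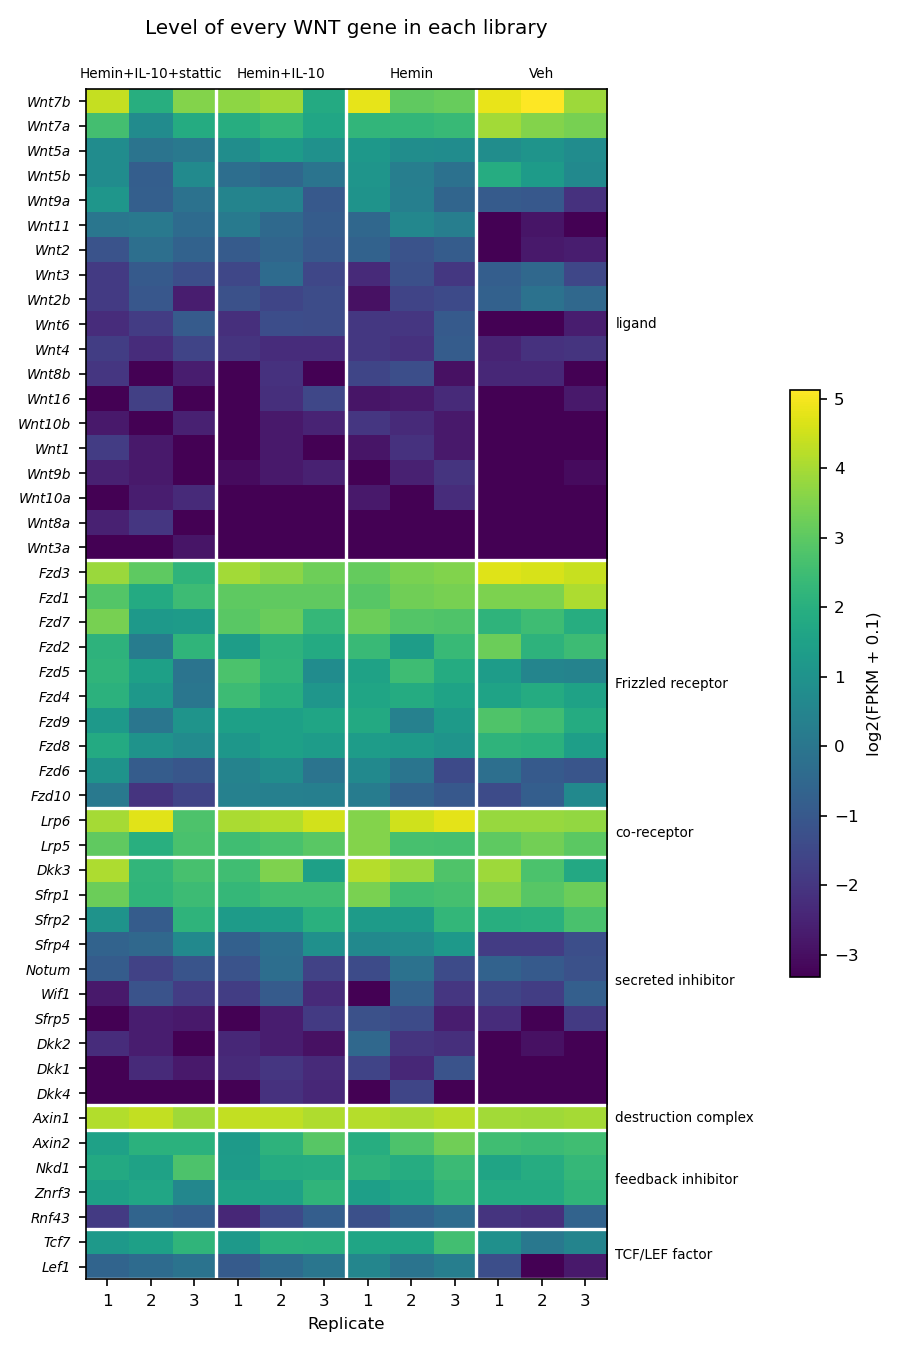
Level of each of the 48 WNT genes in each of the 12 libraries, as log2(FPKM + 0.1), grouped by role and ordered within a role by mean FPKM. Dark cells are at or near 0: the lower 12 ligands and the lower 6 secreted inhibitors stayed dark in most libraries, and the Wnt11, Sfrp4 and Lef1 rows lighten in the 9 libraries with hemin.

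All 10 Frizzled receptors passed the filter, and 3 of them fell in stattic libraries, none in IL-10 libraries and 1 in hemin libraries; none rose. The summed Frizzled level was 22.7 to 53.4 FPKM in stattic libraries, 37.4 to 53.0 FPKM in IL-10 libraries and 44.0 to 45.1 FPKM in hemin libraries, against 59.5 to 67.9 FPKM in vehicle libraries. On this deposited scale no library with hemin overlapped vehicle. Unlike CPM, FPKM was not scaled with TMM, whose factors were 1.08 to 1.09 in vehicle libraries and 0.812 to 1.06 in libraries with hemin. A lower factor means a higher level after TMM. With sums divided by factors, stattic replicate 1 and IL-10 replicate 1 lie above vehicle replicate 3, so the separation does not hold on that scale. Their sums were 53.4, 53.0 and 59.5 FPKM and their factors 0.960, 0.955 and 1.085. The summed Frizzled level was not tested. Fzd3 alone held 19.6% to 34.8% of that sum in stattic libraries, 24.7% to 28.9% in IL-10 libraries and 19.3% to 25.3% in hemin libraries, against 35.9% to 40.5% in vehicle libraries. It was the most abundant Frizzled message except in stattic replicate 3, where Fzd1 was higher, and in hemin replicate 1, where Fzd7 was higher.

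Fzd3 is a receptor known for axon guidance and planar cell polarity. It stood at 189, 103 and 71.1 CPM in stattic libraries, 205, 161 and 120.5 CPM in IL-10 libraries and 112, 138 and 138 CPM in hemin libraries, against 306, 289 and 251 CPM in vehicle libraries. All 9 libraries with hemin lay below the lowest vehicle library, and stattic replicate 3, in which long transcripts ran low, was the lowest of all. Its log2 fold change was -1.22 ± 0.32 for stattic (SE; adjusted p = 0.0189) and -1.12 ± 0.32 for hemin (adjusted p = 0.0288), while that for IL-10, -0.80 ± 0.32, had an adjusted p of 0.0962 and was not called. The IL-10 comparison passed without both hemin replicate 1 and stattic replicate 3 (adjusted p = 0.0427), without stattic replicate 1 or 3 alone, with those 2 groups alone and with the replicate block (0.0322 to 0.0458). The hemin call was lost without any 1 of the 3 hemin or 3 vehicle libraries (adjusted p 0.0589 to 0.0911). The stattic call was lost without stattic replicate 2, vehicle replicate 1 or vehicle replicate 2 (0.0573, 0.0683 and 0.0553) and with a correction for transcript length (0.0700).

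Fzd1 and Fzd9 fell in the stattic comparison. Fzd1 stood at 32.5, 14.9 and 29.1 CPM in stattic libraries, 36.8, 35.9 and 35.3 CPM in IL-10 libraries and 32.7, 42.8 and 42.9 CPM in hemin libraries, against 43.0, 42.8 and 67.0 CPM in vehicle libraries. Its log2 fold change for stattic over vehicle was -1.0 ± 0.29 (SE; adjusted p = 0.0277), and the call was lost without stattic replicate 2, vehicle replicate 1 or vehicle replicate 3 (adjusted p 0.0647, 0.0509 and 0.117) and with the length correction (0.0668). Fzd9 stood at 4.72, 1.78 and 4.92 CPM in stattic libraries, 5.61, 5.37 and 5.96 CPM in IL-10 libraries and 6.94, 2.46 and 4.41 CPM in hemin libraries, against 12.5, 10.4 and 6.57 CPM in vehicle libraries. The stattic libraries of both genes lay below every vehicle library. The Fzd9 log2 fold change of -1.37 ± 0.46 (SE) passed narrowly at an adjusted p of 0.0471. That call was kept without stattic replicate 3, hemin replicate 1 or hemin replicate 2 and lost without any other single library (0.0529 to 0.153). For hemin over vehicle Fzd9 had a log2 fold change of -1.09 and an adjusted p of 0.106, and it was called without both hemin replicate 1 and stattic replicate 3 (-1.52, adjusted p = 0.0418), with the replicate block (0.0470) and by limma on log2(FPKM + 1) (0.0489).

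Fzd7, a receptor used by β-catenin signalling in progenitor cells of several tissues, came after Fzd3 and Fzd1 by mean FPKM and ran the other way without being called. It stood at 50.9, 10.8 and 14.3 CPM in stattic libraries, 38.6, 43.5 and 22.9 CPM in IL-10 libraries and 45.1, 35.3 and 30.9 CPM in hemin libraries, against 19.3, 24.2 and 16.2 CPM in vehicle libraries. The hemin libraries lay above the vehicle libraries, with a log2 fold change of 0.90 (95% CI -0.16 to 1.96) and an adjusted p of 0.209 in edgeR's quasi-likelihood test. Fzd5 was also higher in each hemin library than in vehicle, at 19.5 to 38.4 CPM against 7.90 to 15.7 CPM, with a log2 fold change of 1.34 and an adjusted p of 0.120. Fzd5 was called for hemin with the length correction, those 2 groups alone or the replicate block (0.0256 to 0.0456). Fzd7 was called for hemin with those 2 groups alone or without stattic replicate 1 (0.0194 and 0.0428). For IL-10 the Fzd5 log2 fold change was 1.48 (adjusted p = 0.0894 in edgeR's quasi-likelihood test), and for stattic 0.86 (0.292). Fzd5 was called higher for IL-10 by DESeq2, the length correction or the replicate block (0.0355 to 0.0359). It was also called there without stattic replicate 3 or IL-10 replicate 3 (0.0487 and 0.0329). Fzd2, Fzd4, Fzd6, Fzd8 and Fzd10 were not called in any comparison; Fzd6 was called higher for IL-10 with those 2 groups alone and with the replicate block (0.0411 and 0.0251).

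**Figure D3:**
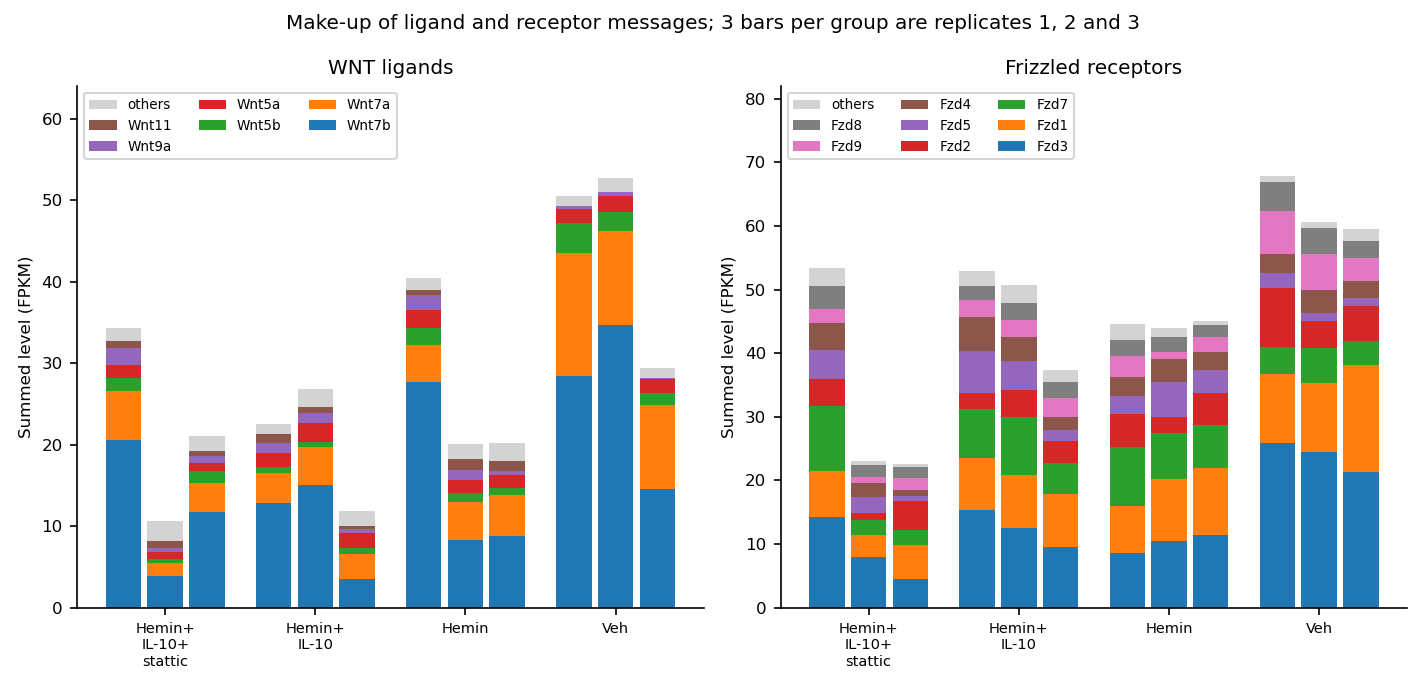
Summed FPKM of the 19 ligands (left) and the 10 Frizzled receptors (right) in each library, split by gene; each group has 3 bars, replicates 1, 2 and 3 from left to right. Wnt7b and Wnt7a fill most of every ligand bar, and the Fzd3 block is at 21.3 to 25.8 FPKM in vehicle bars and at 4.43 to 15.3 FPKM in the bars with hemin.

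The co-receptors Lrp6 and Lrp5 were not called in any comparison in the main edgeR fit of all 12 libraries. Lrp6 was called higher in each comparison with vehicle once stattic replicate 3 and hemin replicate 1 were left out, and with a length correction. Lrp6 stood at 151, 242 and 76.5 CPM in stattic libraries, 158, 163 and 207 CPM in IL-10 libraries and 110, 213 and 235 CPM in hemin libraries, against 119, 120 and 113 CPM in vehicle libraries. The vehicle libraries were close together. The lowest values, in stattic replicate 3 and hemin replicate 1, were those of the 2 libraries in which long transcripts ran lowest. Lrp5 stood at 43.7, 19.9 and 41.2 CPM in stattic libraries, 30.3, 33.0 and 38.8 CPM in IL-10 libraries and 61.0, 32.3 and 29.6 CPM in hemin libraries, against 38.1, 46.2 and 36.9 CPM in vehicle libraries. The log2 fold change of Lrp6 over vehicle was 0.42, 0.59 and 0.67 for stattic, IL-10 and hemin, and that of Lrp5 was -0.21, -0.25 and 0.02. Without those 2 libraries the log2 fold change of Lrp6 was 0.74, 0.60 and 0.93 (edgeR's quasi-likelihood adjusted p = 0.0271, 0.0381 and 0.0123), and with the length correction it was 0.78, 0.79 and 0.88 (adjusted p = 0.0217, 0.0195 and 0.0127).

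Of 10 secreted inhibitors 4 passed the filter of the main edgeR fit. Dkk3, Sfrp1 and Sfrp2 were not called, while Sfrp4 was called higher in all 3 comparisons. It stood at 0.943, 1.05 and 3.12 CPM in stattic libraries, 0.863, 1.26 and 2.93 CPM in IL-10 libraries and 2.58, 2.67 and 3.51 CPM in hemin libraries, against 0.278, 0.274 and 0.476 CPM in vehicle libraries. The groups did not overlap vehicle, but replicate 3 was well above the other two in the stattic and IL-10 groups. Over vehicle, Sfrp4 had a log2 fold change of 2.26 ± 0.66 for stattic (SE; adjusted p = 0.0278), 2.26 ± 0.66 for IL-10 (adjusted p = 0.0310) and 3.05 ± 0.65 for hemin (adjusted p = 0.00858). The hemin call was kept without any 1 of the 12 libraries. The stattic call was lost without stattic replicate 3 or any 1 vehicle library (0.0571 to 0.0975), and the IL-10 call without IL-10 replicate 2, IL-10 replicate 3 or any 1 vehicle library (0.0574 to 0.117). Without both hemin replicate 1 and stattic replicate 3 the stattic value was 1.50 (adjusted p = 0.105).

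Markers of fibroblasts, mural and endothelial cells moved in the same direction as Sfrp4, Wnt11 and Lef1. Their summed level over 9 markers was 31.8 to 86.9 CPM in stattic libraries, 20.1 to 64.7 CPM in IL-10 libraries and 50.4 to 185.5 CPM in hemin libraries, against 5.21 to 8.35 CPM in vehicle libraries. Of 8 tested markers 4 were called higher for stattic, 2 for IL-10 and 5 for hemin; none of the 9 was at 0 in all libraries of a group, and 3 of them mark endothelial cells. Pecam1 was at 6.58 to 33.5 CPM with hemin, against 0.286 to 0.464 CPM in vehicle, Cdh5 at 0.629 to 13.0 CPM, against 0.0914 to 0.667 CPM, and Cldn5 at 0 to 0.240 CPM, against 0 to 0.186 CPM. Microglial markers, summed over 11 genes, stood at 75.7 to 164 CPM in stattic libraries, 25.4 to 56.6 CPM in IL-10 libraries and 51.8 to 180 CPM in hemin libraries, against 8.57 to 35.8 CPM in vehicle libraries. Their part in the levels of Sfrp4, Wnt11 and Lef1 was not tested.

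Dkk3, a divergent family member not known for blocking the co-receptor as Dkk1 does, and Sfrp1 were the most abundant secreted inhibitors. Dkk3 stood at 58.0, 15.0 and 25.3 CPM in stattic libraries, 19.4, 35.9 and 8.48 CPM in IL-10 libraries and 60.3, 47.2 and 21.2 CPM in hemin libraries, against 43.9, 19.5 and 10.0 CPM in vehicle libraries. The spread within each group was as wide as the distance between groups. Sfrp1 stood at 41.1, 19.5 and 29.3 CPM in stattic libraries, 21.8, 24.7 and 24.2 CPM in IL-10 libraries and 46.4, 25.3 and 25.1 CPM in hemin libraries, against 46.5, 29.6 and 36.8 CPM in vehicle libraries. The IL-10 libraries lay below all vehicle libraries, with a log2 fold change of -0.67 (95% CI -1.37 to 0.02; edgeR's quasi-likelihood adjusted p = 0.153). Sfrp2 ranged from 0.838 to 10.3 CPM with hemin and from 6.68 to 10.9 CPM in vehicle and was not called. Its highest stattic value, 10.3 CPM, was that of replicate 3, and without that library the stattic comparison was called lower (log2 fold change -1.83, adjusted p = 0.0421), as it was without both hemin replicate 1 and stattic replicate 3 (-1.82, adjusted p = 0.0453).

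Wif1 and Notum were at the edge of detection. Wif1 had 1, 7 and 4 counts in stattic libraries, 4, 9 and 2 in IL-10 libraries and 0, 11 and 3 in hemin libraries, against 5, 4 and 10 in vehicle libraries. Notum had 9, 4 and 9 counts in stattic libraries, 7, 14 and 4 in IL-10 libraries and 6, 17 and 6 in hemin libraries, against 10, 8 and 6 in vehicle libraries. Both overlapped between all groups. Dkk1 had 0, 2 and 1 counts in stattic libraries, 2, 3 and 2 in IL-10 libraries and 5, 2 and 7 in hemin libraries, against 0 in each vehicle library. With the vehicle group set to a floor of 3 counts, its ratio to vehicle was 2.62 for IL-10 and 5.04 for hemin. The counting error of the IL-10 and hemin groups is left out, so these ratios are no lower bounds. Dkk2 had 4, 2 and 0 counts in stattic libraries, 3, 2 and 1 in IL-10 libraries and 23, 5 and 4 in hemin libraries, against 0, 1 and 0 in vehicle libraries, so most of its counts came from hemin replicate 1. Without the filter on low counts Dkk1 and Dkk2 were called in the hemin comparison. Limma on log2(FPKM + 0.1) called both there as well (adjusted p = 0.0191 and 0.0368). Dkk4 had at most 2 counts in any group and Sfrp5 at most 12.

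Axin1, the scaffold of the destruction complex, had the highest mean FPKM of the 48 genes and varied little. It stood at 66.0, 69.5 and 64.3 CPM in stattic libraries, 76.3, 68.4 and 58.9 CPM in IL-10 libraries and 64.2, 61.2 and 61.1 CPM in hemin libraries, against 51.7, 50.0 and 50.6 CPM in vehicle libraries. Each library with hemin was above each vehicle library, but the log2 fold changes of 0.39, 0.42 and 0.29 for stattic, IL-10 and hemin were not called (adjusted p = 0.106, 0.0943 and 0.234). For IL-10 Axin1 was called without both hemin replicate 1 and stattic replicate 3 (0.43, adjusted p = 0.0416) and without stattic replicate 3 alone (0.0428), and DESeq2 and the length correction called it for stattic and IL-10 (0.0219 to 0.0444).

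The feedback genes, whose messages rise with β-catenin signalling in many cells, were not called in any comparison. Axin2 stood at 12.1, 17.5 and 21.6 CPM in stattic libraries, 10.4, 18.2 and 31.2 CPM in IL-10 libraries and 16.3, 29.0 and 39.7 CPM in hemin libraries, against 22.1, 20.5 and 21.8 CPM in vehicle libraries. The vehicle libraries lay close together, and every group with hemin spanned or nearly spanned them. The log2 fold change of Axin2 was -0.33 for stattic (95% CI -1.21 to 0.55), -0.11 for IL-10 (-0.98 to 0.77) and 0.40 for hemin (-0.47 to 1.27). Nkd1 stood at 12.1, 9.43 and 27.0 CPM in stattic libraries, 10.0, 12.1 and 11.4 CPM in IL-10 libraries and 14.1, 12.5 and 17.4 CPM in hemin libraries, against 8.54, 10.3 and 17.3 CPM in vehicle libraries. Znrf3 ranged from 12.0 to 31.5 CPM and Rnf43 from 0.324 to 2.81 CPM over the 12 libraries.

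Both TCF/LEF factors rose in all 3 comparisons. Lef1 stood at 1.57, 1.78 and 3.24 CPM in stattic libraries, 1.40, 2.11 and 3.03 CPM in IL-10 libraries and 4.36, 2.67 and 3.00 CPM in hemin libraries, against 0.742, 0 and 0.0952 CPM in vehicle libraries. No library overlapped vehicle, and 8 of the 9 vehicle counts lay in replicate 1. The log2 fold change was 2.92 ± 0.82 for stattic (SE; adjusted p = 0.0234), 2.91 ± 0.81 for IL-10 (adjusted p = 0.0265) and 3.52 ± 0.81 for hemin (adjusted p = 0.0118). The hemin call was kept without any 1 of the 12 libraries. The stattic call was lost without stattic replicate 3 or vehicle replicate 2 or 3 (adjusted p 0.0522 to 0.0837), and without both hemin replicate 1 and stattic replicate 3 (0.0573). The IL-10 call was lost without IL-10 replicate 2 or 3 or vehicle replicate 2 or 3 (0.0622 to 0.0916).

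Tcf7 was the more abundant of the pair. It stood at 11.6, 11.9 and 19.6 CPM in stattic libraries, 11.0, 15.2 and 15.9 CPM in IL-10 libraries and 12.3, 13.5 and 22.3 CPM in hemin libraries, against 7.05, 4.75 and 6.38 CPM in vehicle libraries. All 9 libraries with hemin lay above the highest vehicle library. Over vehicle, Tcf7 had a log2 fold change of 1.24 ± 0.33 for stattic (SE; adjusted p = 0.0193), 1.21 ± 0.33 for IL-10 (adjusted p = 0.0242) and 1.40 ± 0.33 for hemin (adjusted p = 0.0129). The hemin call was lost without vehicle replicate 2 (0.0536), the stattic call without vehicle replicate 2 or 3 (0.0715 and 0.0545), and the IL-10 call without IL-10 replicate 2 or 3 or any 1 vehicle library (0.0563 to 0.0831).

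**Figure D4:**
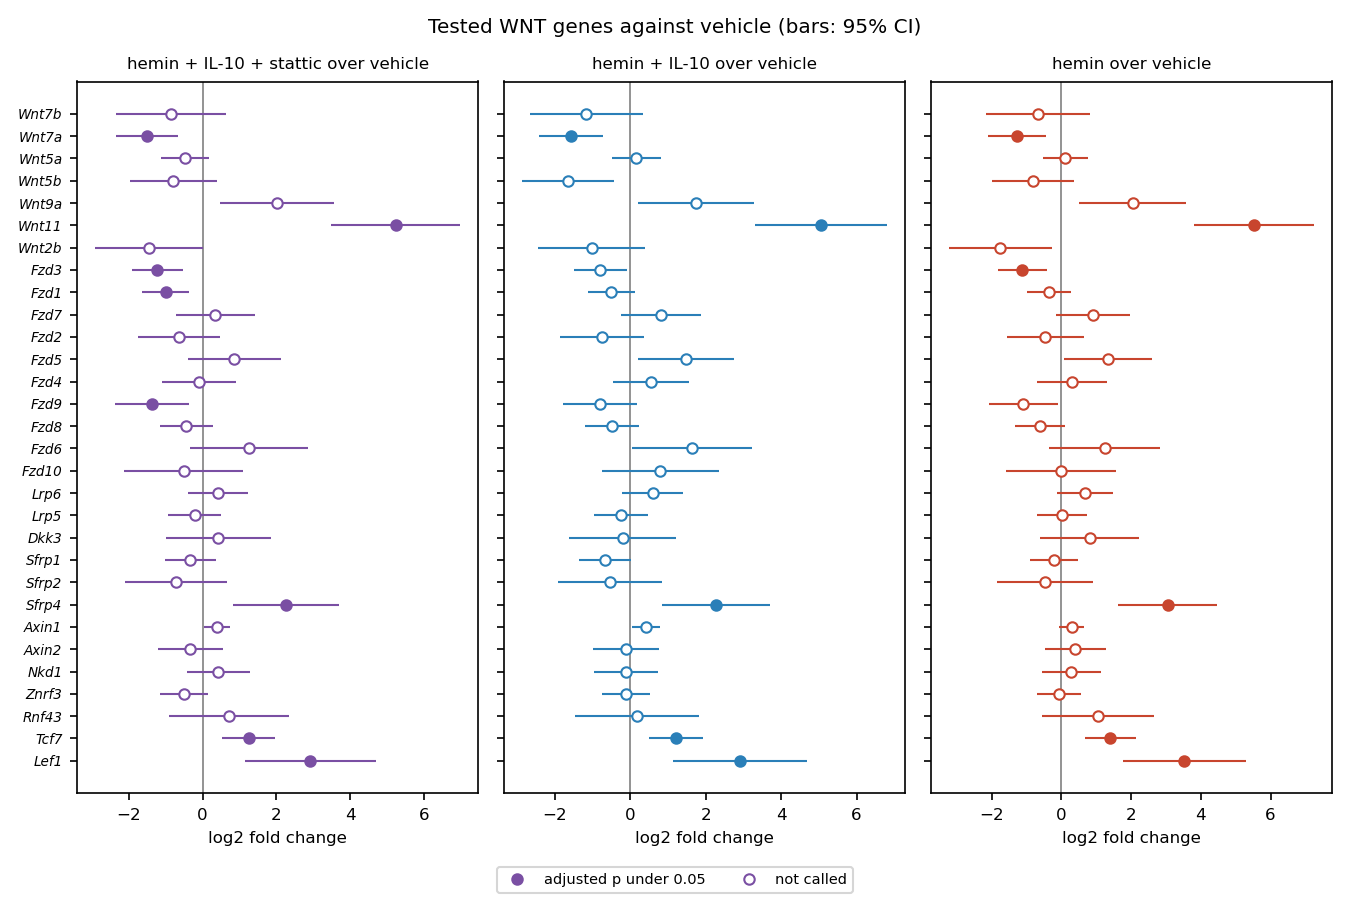
Log2 fold change of the 30 tested WNT genes over vehicle, with 95% CIs, for stattic, IL-10 and hemin libraries from left to right; filled points were called and open points were not. Wnt11, Lef1, Tcf7 and Sfrp4 are filled to the right of 0 in all 3 panels, Wnt7a to the left in all 3, Fzd3 to the left in the stattic and hemin panels, and Fzd1 and Fzd9 to the left in the stattic panel.

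No WNT gene was called when stattic was added to hemin and IL-10, nor when IL-10 was added to hemin. edgeR called 0 of 30 WNT genes and 0.0% of all 13967 genes in either comparison, and at an unadjusted p under 0.05 it had 0 WNT genes in both, against 3.74% of all genes for stattic and 2.41% for IL-10. DESeq2 and limma also called 0 WNT genes in both. For stattic over IL-10 the log2 fold changes ran from -1.31 (Fzd10) to 0.86 (Wnt5b), with a median of -0.01, against 0.02 over all tested genes. For IL-10 over hemin they ran from -1.01 (Dkk3) to 0.82 (Fzd10), with a median of -0.16, against -0.01 over all genes. These values do not show that the genes are alike in those groups: the 95% CI of Wnt7a was -0.75 to 0.92 for stattic over IL-10 and -1.13 to 0.54 for IL-10 over hemin, and that of Wnt11 was -0.96 to 1.32 and -1.59 to 0.67.

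Fzd1, Fzd9, Fzd10 and Wnt5a had no stattic library that reached an IL-10 library, 4 of 30 tested WNT genes against 5.36% of all tested genes, and each was lower. The log2 fold change was -0.64 for Wnt5a (95% CI -1.30 to 0.01; unadjusted p = 0.0537 in edgeR's quasi-likelihood test), -0.50 for Fzd1 (-1.13 to 0.13), -0.57 for Fzd9 (-1.57 to 0.43) and -1.31 for Fzd10 (-2.91 to 0.30). For IL-10 against hemin, Fzd10 was higher and Nkd1 and Sfrp1 were lower in every library, 3 of 30 against 8.68%. The adjusted p was at least 0.921 for stattic over IL-10 and 0.999 for IL-10 over hemin for all 30 WNT genes in edgeR's quasi-likelihood test. The calls of Fzd1 and Fzd9 in stattic libraries and not in the other groups therefore do not show that stattic changed them, since the direct difference was not called.

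**Figure D5:**
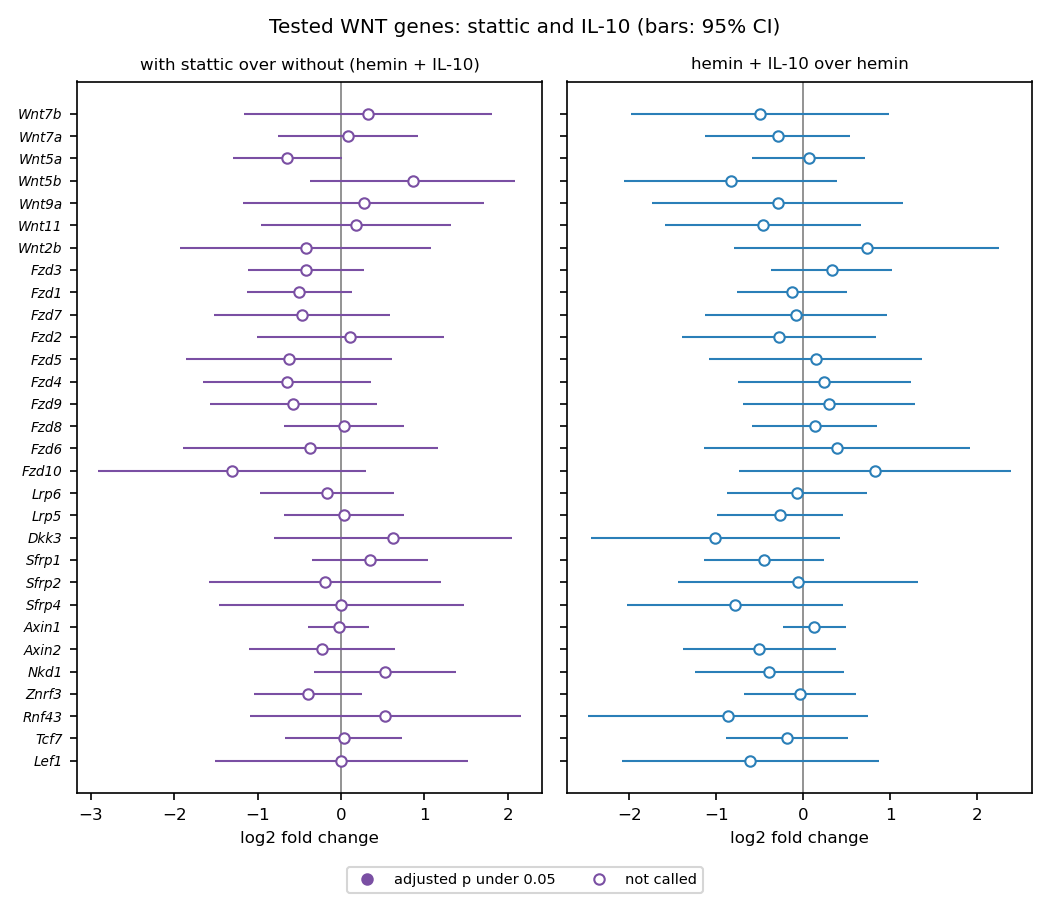
Log2 fold change of the 30 tested WNT genes, with 95% CIs, for stattic over IL-10 libraries (left) and IL-10 over hemin libraries (right). All points are open, so no gene was called, and the points lie between -1.31 and 0.86 on the left and between -1.01 and 0.82 on the right.

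The wider WNT pathway, from ligand secretion to planar polarity, was followed through 64 further genes, of which 59 were tested. Wls, the carrier that brings WNT ligands to the surface, rose in all 3 comparisons with vehicle. No other gene of the list rose in any of them in the main edgeR fit. Other fits of all 12 libraries called further genes higher or lower. Among them Lgr4 was called higher in all 3 by edgeR with the length correction and with the replicate block (adjusted p 0.0202 to 0.0416). Dvl2 was called higher for stattic by DESeq2 and by edgeR with the block (adjusted p = 0.0260 and 0.0159). Without both hemin replicate 1 and stattic replicate 3, the receptor Lgr4 was called higher in all 3 (log2 fold change 1.02, 0.85 and 1.15 for stattic, IL-10 and hemin) and the Dkk1 receptor Kremen2 for IL-10 and hemin (2.88 and 3.34), while Ctnnbip1 was called lower for stattic and IL-10 (-0.89 and -0.87) and Bcl9 for hemin (-0.51). The stattic call of Tnik was lost without them. Wls averaged 44.0 ± 5.83 CPM in stattic libraries, 43.6 ± 0.760 CPM in IL-10 libraries and 49.8 ± 4.79 CPM in hemin libraries, against 24.7 ± 1.70 CPM in vehicle libraries (SD, n = 3 each). The log2 fold change of Wls was 0.83 ± 0.18 for stattic (SE; adjusted p = 0.00888), 0.82 ± 0.18 for IL-10 (adjusted p = 0.0104) and 1.01 ± 0.18 for hemin (adjusted p = 0.00390). Genes that fell numbered 9 for stattic, 11 for IL-10 and 6 for hemin, against 10.2%, 8.81% and 9.15% of all tested genes called lower. Counted in both directions, the stattic count of 10 fell to 6 without vehicle replicate 1 or 3. The IL-10 count of 12 was 5 without IL-10 replicate 2 or vehicle replicate 1, 6 without IL-10 replicate 1 or vehicle replicate 2, and 7 without vehicle replicate 3. The hemin count of 7 was 3 without hemin replicate 2 and 12 without stattic replicate 3.

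Apc2, a relative of the destruction complex protein APC found mainly in neural cells, fell furthest among them. It averaged 29.8 ± 3.67 CPM in stattic libraries, 23.7 ± 5.22 CPM in IL-10 libraries and 24.9 ± 4.17 CPM in hemin libraries, against 191 ± 57.8 CPM in vehicle libraries (SD, n = 3 each), with log2 fold changes of -2.68, -3.01 and -2.94. Among planar polarity genes, the cadherin Celsr2 (-2.29, -2.0 and -2.13) and the membrane protein Vangl2 (-1.38, -1.35 and -1.20) fell in all 3 comparisons. The β-catenin partner Pygo1 (-1.33, -1.17 and -1.13) and the Dishevelled protein Dvl3 (-0.58, -0.60 and -0.78) fell in all 3 as well. Bcl9l fell for stattic and hemin, the Dishevelled-binding Cxxc4 and Cxxc5 for stattic and IL-10, Tnik for stattic, and Bcl9, Celsr3, Dact3 and Tcf7l1 for IL-10. Ctnnb1, which encodes β-catenin, had the highest mean level on the list at 268 FPKM over all 12 libraries and a log2 fold change of -0.02 for hemin over vehicle. The calls of Wls, Apc2 and Celsr2 in all 3 comparisons, of Bcl9l, Pygo1 and Vangl2 for stattic and of Celsr3 and Pygo1 for IL-10 were kept without any 1 library, and each other call named here was lost without at least 1 library of its own 2 groups, at an adjusted p of up to 0.157. In the comparisons of stattic with IL-10 and of IL-10 with hemin edgeR called 0 of the 59, with 2 at an unadjusted p under 0.05 in each, and DESeq2 and limma called 0.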

How the data were processed

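RNA-seq was measured in 12 libraries of mouse primary oligodendrocyte progenitor cells, grouped by the treatment in the labels. Per the labels' protocols, cDNA from total RNA took up dUTP in its second strand and was read as DNA nanoballs. Among the tools in the submitters' processing notes are RSEM, Bowtie, Bowtie2, HISAT, TopHat, StringTie, Cufflinks and CASAVA, without roles. Neither the genome build nor the use of strand in counting is given there, and overlapping and antisense genes cannot be told apart. Per the file headers the deposited files give an expected count and an FPKM value, both made by the authors, and each gene's length. Genes without reads are left out of a deposited file and were set to 0.

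The rounded expected counts were tested with edgeR 4.0.16 in R 4.3.3 (filterByExpr, TMM, robust quasi-likelihood fit, 1 mean per group over all 12 libraries, no replicate block), with Benjamini-Hochberg adjustment over 13967 genes and calls at 0.05. FPKM was used to set genes side by side and, as log2(FPKM + 1), in limma 3.58.1; DESeq2 1.42.0 was the other alternative. Methods were tested on simulated data. Replicates differed by more than sampling noise (chi-square divided by its degrees of freedom was 14.6 to 176). Any WNT gene could be named; values per library are given for called genes, the 3 most abundant ligands and Frizzled receptors, the most abundant Sfrp and Dkk genes, and Axin2, Lef1, Tcf7, Lrp5, Lrp6, Nkd1, Notum and Wif1. Other pathway genes were named where called or most abundant. The WNT genes, the pathway list, the marker lists (progenitors, oligodendrocytes, microglia, astrocytes, neurons, and fibroblasts with mural and endothelial cells) and the tests were chosen with earlier results of these data known. Same-numbered libraries of IL-10 and hemin deviated together (correlations 0.37, 0.17 and 0.61), but IL-10 replicate 2 correlated best with a hemin library of another number. Whether the numbers pair those 2 groups is therefore not settled. The fold changes, CIs and p-values printed for IL-10 over hemin come from the fit without a block and allow for no pairing. In the other comparisons at least 1 correlation was under 0.1.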

Additional observations from a re-analysis of the deposited data

How the results depend on the processing

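No WNT gene called in a comparison with vehicle changed direction under any of the 23 alternatives in which it was tested, and Wnt11 stayed called under each of them. Of the 30 tested WNT genes, 6 were called for hemin over vehicle, and leaving out 1 library at a time gave 3 to 8. Under its own filter on FPKM, limma called 11 WNT genes on log2(FPKM + 0.1) and 10 on log2(FPKM + 1). The 11 include Dkk1, Dkk2, Wnt2 and Wnt6 and the 10 include Dkk1 and Wnt2, which are outside the 30. For IL-10 over vehicle 5 were called, against 9 with DESeq2, 9 with a correction for transcript length, 9 with those 2 groups alone and 9 without both hemin replicate 1 and stattic replicate 3; leaving out 1 library gave 2 to 9. For stattic over vehicle 8 were called, against 1 with those 2 groups alone, which was Wnt11, and leaving out 1 library gave 3 to 8. With stattic and vehicle alone Sfrp4 did not pass the filter on low counts, as it did not with IL-10 and vehicle alone, and the other called genes had adjusted p-values of 0.0543 to 0.101. On log2(FPKM + 1) limma lost Sfrp4 and Tcf7 for stattic (adjusted p = 0.107 and 0.0773) and for IL-10 (0.0846 and 0.0559), and on log2(FPKM + 0.1) it lost Tcf7 for stattic (0.0542). With the replicate number as a block the WNT counts were 9 for stattic, 10 for IL-10 and 9 for hemin over vehicle, and those of the other pathway genes 17, 19 and 12. The block called 0 WNT genes for stattic over IL-10 and for IL-10 over hemin, where the numbers may pair the samples, and changed no other call there. Other pathway genes called with the 2 groups alone were 5 for stattic and 13 for hemin. The cause of these shifts was not tested. With library totals in place of TMM the median log2 fold change of all genes over vehicle was -0.14 for stattic, -0.13 for IL-10 and -0.07 for hemin, against 0.10, 0.00 and 0.03. Genes with few counts in vehicle (Wnt11 with 1, Lef1 with 9, Sfrp4 with 11) have imprecise fold changes at this depth.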

Other observations

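The number of ligand genes with any value above 0 was 15 to 16 in stattic libraries, 12 to 16 in IL-10 libraries and 16 to 17 in hemin libraries, against 9 to 12 in vehicle libraries, while the number at or above 1 FPKM was 2 to 5, 3 to 5, 4 to 6 and 4 in the same groups. The added ligands were therefore genes with few counts. Over all genes the number listed was also higher with hemin, so the rise was not particular to ligands. It was 16022 to 16896 in stattic libraries, 16337 to 16763 in IL-10 libraries and 16505 to 16899 in hemin libraries, against 15051 to 15369 in vehicle libraries. Wnt7a stood at 0.288 to 0.417 of the Wnt7b FPKM in stattic libraries, 0.290 to 0.882 in IL-10 libraries and 0.165 to 0.581 in hemin libraries, against 0.333 to 0.704 in vehicle libraries, so the balance within the pair overlapped between groups. These values were not tested.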
